A study of Homo sapiens with 8 samples.

Results

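The response of wild-type HCT116 cells to interferon-gamma (IFN-γ) was read from 4 of the 8 libraries of the series. HCT116 is a human colorectal cancer cell line. The 4 members were chosen by their labels: 2 libraries of wild-type cells without treatment, labelled 0 h, and 2 of wild-type cells given 5 ng/ml IFN-γ for 24 h. The other 4 libraries come from a CRISPR-Cas9 knock-in derivative of the same line that carries the E33Q change in MED12, untreated or with the same IFN-γ dose and time. They share the estimate of spread in the fit, gave the tracking genes described below, and are set beside the wild-type response at the end. All cells were grown in McCoy's 5A medium with 10% fetal bovine serum, and rRNA-depleted total RNA was sequenced. The series design states that each condition had 2 biological replicates. Each untreated library was taken at 0 h and each treated one at 24 h, so that the effect of IFN-γ and that of 24 h in culture cannot be told apart.

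IFN-γ is a cytokine of T cells and natural killer cells that binds a receptor made of IFNGR1 and IFNGR2. The kinases JAK1 and JAK2 then phosphorylate a STAT factor, whose homodimer binds the gamma-activated site (GAS) in DNA. Among the first targets is IRF1, a transcription factor that binds the interferon-stimulated response element (ISRE) and carries the response on to antigen presentation, antiviral and cell-autonomous defence genes. In colorectal cancer cells the pathway is known for raising MHC class I and the checkpoint ligand PD-L1.

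The short sequences below show where the letters of these elements lie ahead of a few genes of the pathway, chosen to set induced genes (IRF1, B2M, CD274) beside chemokine genes without a read (CXCL10, CXCL9). They are RefSeq sequence (GRCh38.p14), printed 5′ to 3′ on the strand of the gene, upstream of the gene start and free of GENCODE 29 exons, with the matching letters in capitals. GAS was searched as TTCNNNGAA and the ISRE core as GAAA, NN and GAAA in a row (N is any base), on both strands, and a window of 250 bases before to 50 bases after the start was read for each gene. A second, overlapping ISRE match lies ahead of both B2M and CD274 and is left in lower case here.
IRF1 GAS, chr5:132490859-132490927, minus strand: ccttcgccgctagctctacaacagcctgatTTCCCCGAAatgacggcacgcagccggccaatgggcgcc
CD274 GAS, chr9:5450387-5450455, plus strand: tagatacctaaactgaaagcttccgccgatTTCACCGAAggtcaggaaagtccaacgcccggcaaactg
CD274 ISRE, chr9:5450304-5450373, plus strand: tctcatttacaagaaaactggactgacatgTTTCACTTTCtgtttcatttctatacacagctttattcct
B2M ISRE, chr15:44711343-44711412, plus strand: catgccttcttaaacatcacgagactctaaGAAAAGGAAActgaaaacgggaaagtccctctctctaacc
CXCL10 ISRE, chr4:76023679-76023747, minus strand: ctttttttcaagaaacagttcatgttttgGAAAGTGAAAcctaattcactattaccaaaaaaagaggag
CXCL9 ISRE, chr4:76007641-76007710, minus strand: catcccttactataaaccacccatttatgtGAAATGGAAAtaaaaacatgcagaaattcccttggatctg
Over all 27305 RefSeq windows, 1 per gene symbol, 7.88% held the GAS letters and 3.65% the ISRE core, so that a match is a description and not a binding site. Only 115 of the 265 genes called at least 4-fold higher had a window, too few for a comparison of motif shares between gene sets, which is therefore void.

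The 4 wild-type libraries summed to 22500317 and 22940906 estimated counts without treatment and to 23432640 and 22353370 with IFN-γ. The table has 40295 gene IDs, of which 16519 passed the filter on low counts, 1239 of them without a symbol. Levels are given as CPM, counts relative to a library's total after TMM scaling, with the untreated replicates first, and are compared only within a gene. Changes are log2 fold changes of treated over untreated cells with their standard error (SE) and an adjusted p from edgeR's quasi-likelihood test. The untreated pair agreed less well than the treated pair, with a median absolute log2 difference per gene of 0.341 against 0.122. The mean GC content of the counted genes was 46.6 and 45.5% in untreated and 48.0 and 47.9% in treated libraries. ERCC spike-in RNAs made up 0.110 and 0.128% of the counts before and 0.228 and 0.271% after treatment. Both quantities moved with treatment, and their part in the results was not tested beyond the alternative fits given where they change a call. Scaling to the spike-ins moved the median log2 fold change of all tested genes from 0.08 to -0.72, and every direction below is relative to the TMM scaling unless stated. Of 12 colon epithelial markers, 10 were at 1 CPM or more in each wild-type library.

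Both untreated wild-type libraries also held transcripts of antibody-secreting plasma cells, which HCT116 cells are not known to make. IDs of immunoglobulin genes summed to 211 and 258 CPM in them, and to 1.30 and 0.41 CPM in the treated pair. In the knock-in line the same IDs summed to 0.67 and 200 CPM without and to 0.95 and 165 CPM with IFN-γ, so that there the signal followed replicate number 2 and not treatment. Genes that move with this signal were therefore taken from the knock-in libraries alone: at least 1 CPM in both libraries of replicate 2 and at least 8-fold above replicate 1 at both times, with 0.1 CPM added. The rule gave 52 tracking genes, 5 of them immunoglobulin genes. In the wild-type libraries 50 of the 52 were higher in both untreated than in both treated libraries, where 69.6% of all tested genes had no overlap in one direction or the other, and 27 had no read in either treated library. For each gene the mean level in untreated wild-type libraries was divided by that in the knock-in libraries of replicate 2. The median of these ratios was 1.16, and in 50 of 52 genes the 2 means lay within 2-fold of each other. Together with all 408 immunoglobulin IDs the 52 tracking genes are set apart below as flagged genes (455 IDs, 55 tested).

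JCHAIN, the joining chain of secreted IgA and IgM, had 163 and 158 CPM in untreated wild-type libraries and no read in the treated ones, which is at least 1350-fold lower. IGKC, the kappa light chain constant region, went from 76.8 and 86.1 CPM to no read, at least 688-fold lower. IGHA1, the heavy chain of IgA1, went from 60.6 and 89.8 CPM to no read, at least 635-fold lower. These floors count 3 reads per library. The groups did not overlap for any of these genes, and their adjusted p was 0.0406, 0.0428 and 0.0425, in a fit in which all 8 libraries share an estimate of the spread and the knock-in replicates disagreed. Each of these calls was lost whichever wild-type library was left out, with an adjusted p of 0.0717 to 0.146 for JCHAIN. IRF4 (15.4 and 20.9 to 0.191 and 0 CPM), a plasma cell transcription factor, and MZB1 (7.86 and 9.37 to 0.191 and 0.041 CPM), a chaperone of antibody secretion, had the same pattern. MZB1 was not called whichever wild-type library was left out (adjusted p 0.054 to 0.156), and IRF4 was not called without untreated replicate 2 (adjusted p 0.0763) or treated replicate 1 (adjusted p 0.105) or 2 (adjusted p 0.129). In the same libraries 30 leukocyte markers summed to 52.0 and 66.8 CPM before and to 9.42 and 7.72 CPM after treatment. Of the 30, 11 and 12 were at 1 CPM or more in the untreated libraries and 3 and 2 in the treated ones. In the untreated libraries 12 and 13 were at 0, among them CD3D, CD2, NKG7, CD14 and CD163 in both. CD48, CD4, ITGA4 and ARHGAP30 of this list are tracking genes. Of the 28 plasma and B cell markers, MS4A1, CD27, CD79A, IGHM, IGHG3, IGLC2 and IGLC3 were at 0 in both untreated libraries.

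**Figure D1:**
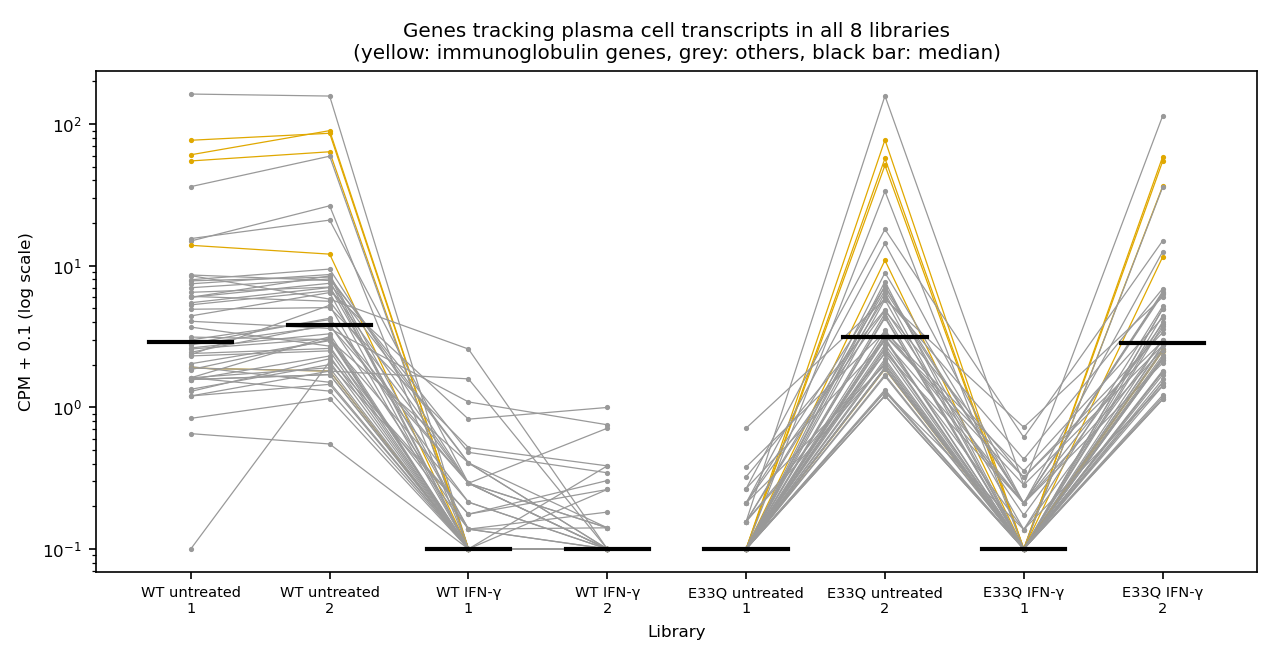
Level of each of the 52 tracking genes in all 8 libraries, as CPM + 0.1 on a log axis, with 1 line per gene within each cell line (yellow for the 5 immunoglobulin genes) and a black bar for the median. Both untreated wild-type libraries and both E33Q libraries of replicate 2 are high, and 27 of the genes have no read in either treated wild-type library.

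Against this background 2821 genes were called higher (17.1% of those tested) and 3435 lower (20.8%) in treated wild-type cells. The rises reached further than the falls: 265 genes were called at least 4-fold higher, while 112 were called at least 4-fold lower, and 86 without the flagged genes. Of the 265, 66 were IDs without a symbol, beside 1239 of the 16519 tested, and such IDs may share reads with named genes. At 16-fold or more the counts were 103 higher and 65 lower, 39 without the flagged genes. Of the 2821 and 3435 called genes, 2818 and 3434 had no overlap between the groups, beside the 69.6% of all tested genes. A switch from at most 3 reads over both untreated libraries to at least 1 CPM was seen for 33 genes called higher, none of them flagged. The reverse was seen for 34 genes called lower, 19 of them flagged. With the trend of each library on GC content and gene length removed, 1796 genes were called higher (10.9%) and 2312 lower (14%), and the spike-in scaling gave 233 and 6745. The 4 wild-type libraries fitted alone gave 2096 higher and 2778 lower. Without untreated replicate 2 the count called higher was 1805, without treated replicate 1 the counts were 1157 higher and 2109 lower, and without treated replicate 2 they were 1486 and 2268.

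**Figure D2:**
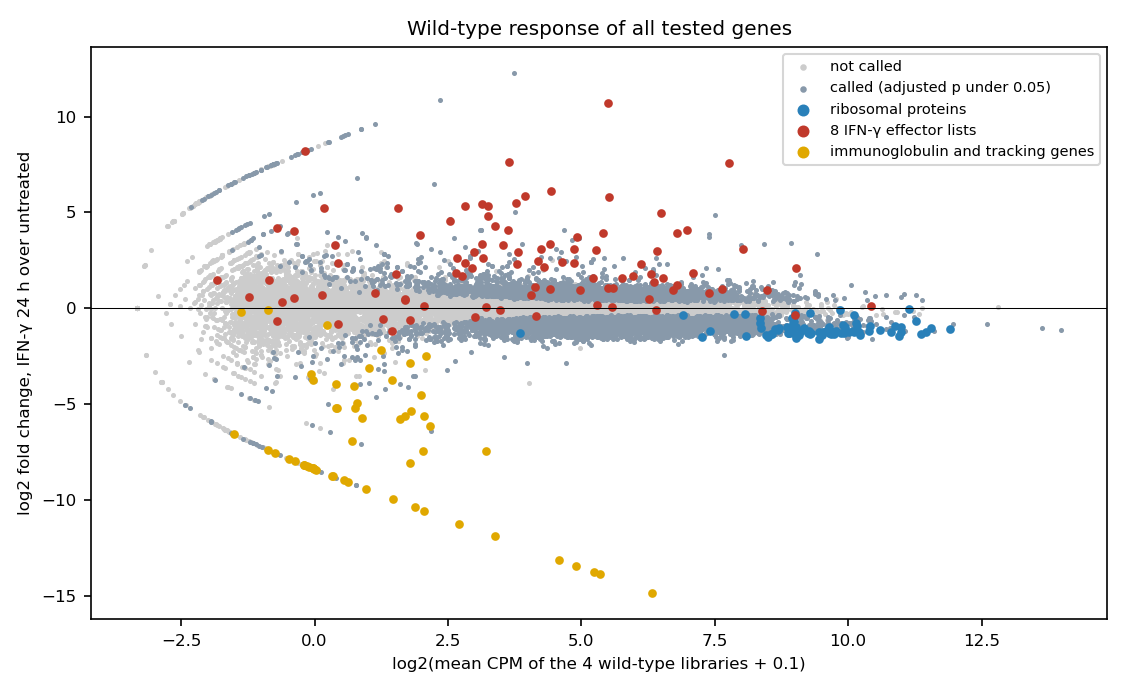
Log2 fold change of each tested gene against its mean level over the 4 wild-type libraries. Members of 8 IFN-γ effector lists (red) lie mostly above 0, ribosomal protein genes (blue) between -1.62 and -0.02, and the immunoglobulin and tracking genes (yellow) reach -14.87; the curved edges are genes with no read in one group, whose fitted change depends on a prior count.

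The receptor chains moved in opposite directions. Of 7 genes for interferon receptors and Janus kinases, 2 were called higher and 1 lower (none and 5 under spike-in scaling). Of all tested genes 17.1% were called higher and 20.8% lower. The median change of the 7 was 0.14, beside 0.08 over all tested genes. Without treated replicate 1 only 1 was called higher, and without treated replicate 2 none. IFNGR1, the ligand-binding chain, fell from 49.6 and 67.1 CPM to 24.5 and 28.5 CPM (log2 fold change -1.14, SE 0.18, adjusted p 0.00158), and its groups did not overlap. With the GC and length trend removed its fall was -0.47. IFNGR2, the signalling chain, stood at 15.03 and 14.1 CPM before and 21.1 and 25.1 CPM after treatment (0.67, SE 0.17, adjusted p 0.0133). IFNGR2 was not called under spike-in scaling (-0.15) or without treated replicate 2 (0.54, adjusted p 0.104). JAK1 (0.26, SE 0.12, adjusted p 0.128) and JAK2 (-0.35, SE 0.17, adjusted p 0.137) did not pass the test.

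Among the transcription factors that carry the signal, 4 of 7 STAT genes and 5 of 8 tested IRF genes were called higher (3 of each under spike-in scaling). For the IRF genes that count was also 3 without untreated replicate 2 or either treated replicate. STAT3, which many cytokine receptors use, rose from 87.9 and 60.2 to 302.5 and 304.1 CPM (2.03, SE 0.18). STAT2, a partner of IRF9 in the ISGF3 complex, rose from 36.1 and 30.1 to 127.9 and 128.2 CPM (1.95, SE 0.13). STAT6 was also called higher (0.61, SE 0.15), but not under spike-in scaling (-0.21) or without treated replicate 1 (adjusted p 0.0609) or 2 (adjusted p 0.0802). STAT4, STAT5A and STAT5B were not called.

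IRF1 showed the largest rise of the STAT and IRF genes, under each of the 3 scalings (TMM, GC and length trend removed, spike-in): 13.6 and 10.3 CPM without IFN-γ, 336.6 and 361.1 CPM with it (4.86, SE 0.17, adjusted p 9.82e-07). Its window holds the GAS letters shown above. IRF9, the DNA-binding subunit of ISGF3, rose from 5.01 and 4.16 to 23.2 and 22.3 CPM (2.31, SE 0.20). IRF7, which drives type I interferon genes, was at 0.506 and 0.752 CPM without treatment, and its treated replicates disagreed at 10.9 and 2.33 CPM (3.39, SE 0.69, adjusted p 0.00489). The call of IRF7 was lost with limma-voom. IRF2, a repressor at many ISREs, went from 11.8 and 6.61 to 18.6 and 19.0 CPM (1.03, SE 0.32, adjusted p 0.0315), a call lost without untreated replicate 2 (0.68, adjusted p 0.168) and without treated replicate 1 (adjusted p 0.103) or 2 (adjusted p 0.105). IRF8 had a single read, in treated replicate 1. IRF4, the one IRF gene called lower, is among the flagged genes above.

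Feedback inhibitors of the pathway moved in both directions, with 7 of 15 called higher and 5 lower, beside 17.1 and 20.8% of all tested genes. Under spike-in scaling the counts were 1 and 7, and with the GC and length trend removed 4 and 2. The counts were 3 and 3 without treated replicate 1 and 5 and 2 without treated replicate 2, and 3 were called lower without untreated replicate 2 or any 1 knock-in library. USP18, which detaches ISG15 and blocks the type I receptor, rose from 7.95 and 6.46 to 30.6 and 33.8 CPM (2.16, SE 0.18, adjusted p 0.000107). SOCS3, an inhibitor of JAK signalling, rose from 21.5 and 12.7 to 53.03 and 52.9 CPM (1.63, SE 0.26, adjusted p 0.00152), a call lost under spike-in scaling (0.79, adjusted p 0.106). SOCS1, the classical inhibitor of the IFN-γ receptor complex, stood at 0.965 and 1.25 CPM before and 3.66 and 2.33 CPM after treatment. The groups did not overlap, but SOCS1 did not pass the test (1.43, SE 0.52, adjusted p 0.0545). PTPN2, a phosphatase of JAK1, fell from 111.1 and 163.2 to 58.3 and 57.0 CPM (-1.25, SE 0.18, adjusted p 0.000923).

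**Figure D3:**
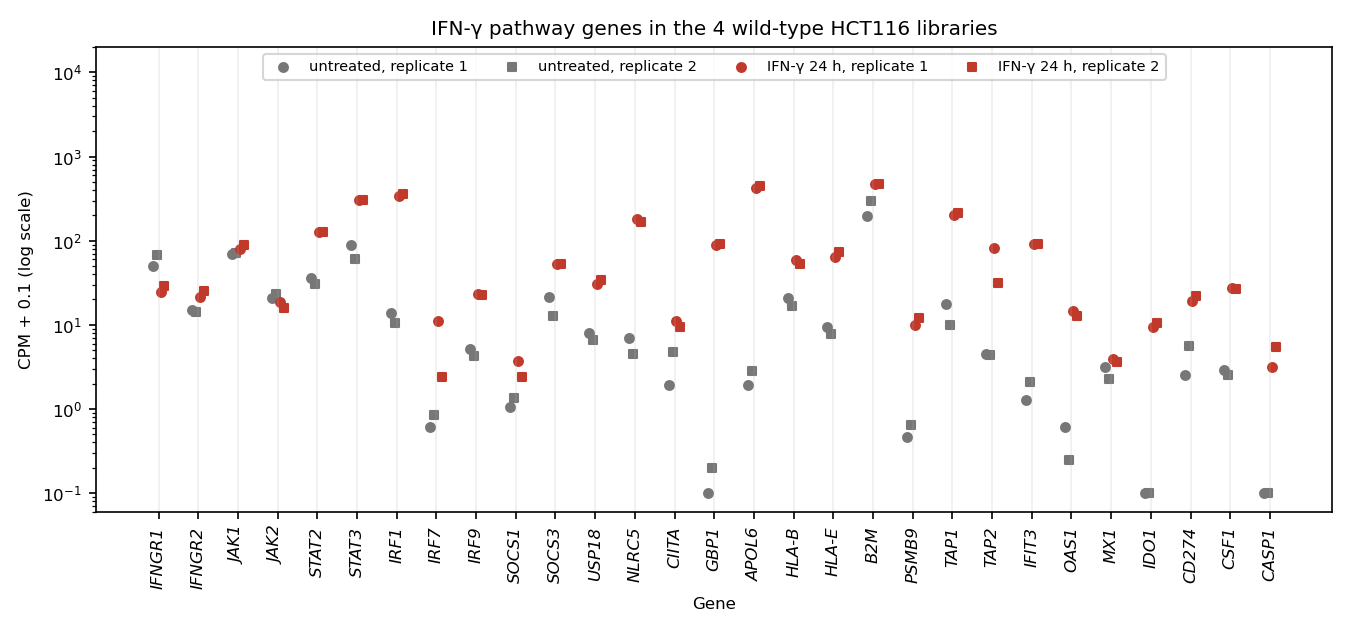
Level of 29 IFN-γ pathway and target genes in the 4 wild-type libraries, as CPM + 0.1 on a log axis, with grey for untreated and red for treated cells and a circle for replicate 1 and a square for replicate 2. The treated libraries lie above both untreated ones for IRF1 (336.6 and 361.1 against 13.6 and 10.3 CPM) and below them for IFNGR1; IRF7 and TAP2 have treated replicates that lie apart.

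Nuclear factors known as interferon targets rose as a group: 12 of 15 tested were called higher and none lower (8 and none under spike-in scaling), with a median change of 2.28 (1.63 with the GC and length trend removed, 1.48 under spike-in scaling). ETV7, an ETS family repressor, went from 0.598 and 0.601 to 44.1 and 40.2 CPM (6.12, SE 0.23, adjusted p 1.06e-06). BATF2, a basic leucine zipper factor that partners with IRF1, went from 0.873 and 0.150 to 28.5 and 31.9 CPM (5.84, SE 0.49, adjusted p 0.000117). NLRC5, the transactivator of MHC class I genes, went from 6.90 and 4.36 to 181.4 and 166.1 CPM (4.94, SE 0.21, adjusted p 1.84e-06). In all 3 genes the untreated replicates were low and the treated ones close to each other. IFI35 followed with a change of 3.94 (SE 0.15).

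The guanylate-binding proteins are GTPases that attack the membranes of intracellular pathogens. Of the 7 tested, 5 were called higher and none lower under each of the 3 scalings, with a median change of 4.07. GBP1 had no read in untreated replicate 1 and 2 reads in replicate 2, against 89.7 and 90.8 CPM with IFN-γ. That is a ratio of 1880, with a 95% counting interval of 521 to 15600. GBP2 went from 0.368 and 0.551 to 17.1 and 19.5 CPM (5.31, SE 0.28), GBP4 from 0.873 and 1.90 to 23.5 and 22.9 CPM (4.07, SE 0.31), and GBP3 from 2.48 and 2.40 to 14.8 and 15.7 CPM (2.64, SE 0.20). GBP5 had 1 read in each untreated library and 1.79 and 2.24 CPM with IFN-γ, a ratio of 42 (95% counting interval 11.3 to 351). The 5 genes are neighbours at chr1:89006666-89272804 (GRCh38, GENCODE 29), with no other tested coding gene between them, and each was called at least 2-fold higher.

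Apolipoprotein L genes, which include the trypanosome lytic factor APOL1, behaved alike: 4 of 5 tested were called higher under each of the 3 scalings, with a median of 5.51. APOL6, linked to cell death, had 1.84 and 2.71 CPM without and 423.5 and 442.7 CPM with IFN-γ (7.58, SE 0.20, adjusted p 2.1e-07). APOL3 went from 0.138 and 0.1 to 25.3 and 24.0 CPM (7.62, SE 0.28), and APOL1 from 0.460 and 0.701 to 26.1 and 26.8 CPM (5.51, SE 0.24). APOL2 was already present at 5.65 and 6.76 CPM and reached 45.7 and 58.4 CPM (3.07, SE 0.25).

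Of 9 tested MHC class I chains, which carry peptides to the cell surface, 5 were called higher and none lower (3 and 1 under spike-in scaling). HLA-E, the ligand of the NKG2A receptor, rose from 9.33 and 7.61 to 64.0 and 72.5 CPM (3.01, SE 0.18, adjusted p 1.33e-05). HLA-B rose from 20.7 and 16.8 to 59.4 and 52.5 CPM (1.57, SE 0.17), and HLA-C from 32.9 and 21.3 to 75.8 and 86.9 CPM (1.58, SE 0.21). B2M, the light chain shared by all of them, had 194.6 and 297.3 CPM before and 465.3 and 476.5 CPM after treatment (0.94, SE 0.19, adjusted p 0.00485). Its change was 1.62 with the GC and length trend removed, and neither it nor HLA-C (0.74, adjusted p 0.0725) was called under spike-in scaling. MHC genes are near-identical in parts, so that reads may be split between IDs, some without a symbol. Values in this region are therefore uncertain, those at or near 0 included (HLA-DRA and PSMB8 below), and this was not tested.

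The machinery that supplies these chains with peptides rose with them. Of 16 genes for the immunoproteasome and peptide loading, 12 were called higher and none lower (11 and 4 under spike-in scaling), with a median of 2.15 (2.28 with the GC and length trend removed). TAP1, a subunit of the peptide transporter, rose from 17.5 and 9.97 to 201.6 and 212.7 CPM (3.91, SE 0.27, adjusted p 3.52e-05). PSMB9, an immunoproteasome catalytic subunit, rose from 0.368 and 0.551 to 9.96 and 12.001 CPM (4.57, SE 0.32), and ERAP1, which trims peptides in the endoplasmic reticulum, from 19.9 and 18.6 to 147.3 and 154.2 CPM (2.97, SE 0.13). TAPBP, which bridges TAP to the class I chain, reached 32.2 and 35.2 CPM from 3.999 and 3.81 CPM (3.11, SE 0.37). TAP2, the other transporter subunit, went from 4.37 and 4.26 to 81.0 and 31.3 CPM (3.70, SE 0.48). Its treated replicates lie apart, and the gene overlaps AL669918.1, so that its value is uncertain. TAP2, PSMB8, PSMB9 and TAP1 lie together with AL669918.1 at chr6:32813767-32859585, and all 5 were called at least 2-fold higher. PSMB8, at 0.046 and 0.050 CPM before and 0.801 and 1.14 CPM after treatment, lost its call without either untreated replicate (adjusted p 0.0603 and 0.0762) or treated replicate 2 (adjusted p 0.0583).

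Subunits of the constitutive proteasome moved the other way. Of 31 tested, 22 were called lower and 3 higher (16 and 2 with the GC and length trend removed, 28 and none under spike-in scaling), with a median of -0.72. The 3 called higher became 1 without untreated replicate 2 or either treated knock-in library, and none without either treated wild-type replicate. PSMB1, a core subunit, fell from 296.5 and 350.6 to 136.3 and 124.9 CPM (-1.31, SE 0.13, adjusted p 0.000304), or by 0.52 with the trend removed. PSMD14, the deubiquitinase of the lid, fell from 403.4 and 564.6 to 200.9 and 217.5 CPM (-1.21, SE 0.16). PSMB5 and PSMB7, catalytic subunits that immunoproteasome subunits replace, fell by 0.58 (SE 0.13) and 0.93 (SE 0.14), the first not called without treated replicate 1 (adjusted p 0.0792). PSMB6, the third such subunit, was not called (-0.38, SE 0.16, adjusted p 0.1).

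Few MHC class II pathway genes were called, beside 17.1% of all tested genes called higher and 20.8% lower. Of 13 genes tested, 2 were called higher and none lower (none and 3 under spike-in scaling), and neither call was kept with the GC and length trend removed or without treated replicate 1. CIITA, the class II transactivator, went from 1.84 and 4.61 to 11.1 and 9.31 CPM (1.66, SE 0.37, adjusted p 0.00779). The groups did not overlap, but without treated replicate 1 (adjusted p 0.0507) or under spike-in scaling CIITA was not called, and its change with the GC and length trend removed was 0.74. RFX5, a factor bound at class II promoters, changed by 0.45 (SE 0.12), a call lost under spike-in scaling (-0.34), and without untreated replicate 1 or either treated replicate (adjusted p 0.0555 to 0.132). HLA-DRA had no read in any wild-type library, and the limit that a count of 0 allows was 0.138 and 0.150 CPM in untreated and 0.114 and 0.122 CPM in treated libraries. CD74, the invariant chain, had 26.0 and 34.2 CPM without and 1.60 and 2.37 CPM with IFN-γ, and was not called (-3.92, SE 1.39, adjusted p 0.0505). In the knock-in line CD74 had 0.111 and 24.6 CPM untreated and 4.98 and 31.7 CPM treated, high in the libraries that hold plasma cell transcripts. In knock-in replicate 1, with 0.67 and 0.95 CPM of immunoglobulin IDs, CD74 was at 0.111 CPM without and 4.98 CPM with IFN-γ. Both untreated wild-type libraries hold plasma cell transcripts, so that the wild-type values do not show whether HCT116 cells changed CD74.

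Antiviral effectors shared with the type I response rose widely. Of 15 IFIT, IFITM and small IFI genes, 10 were called higher and none lower (7 and 3 under spike-in scaling), with a median of 1.85. Of 24 OAS, MX and other effectors, 18 were called higher and none lower (15 and 2 under spike-in scaling), with a median of 1.93. IFIT3, an RNA-binding effector, went from 1.20 and 2.004 to 89.99 and 90.1 CPM (5.82, SE 0.23, adjusted p 1.11e-06). OAS1, which makes the activator of RNase L, went from 0.506 and 0.150 to 14.5 and 12.6 CPM (5.32, SE 0.41), and OAS3 from 65.0 and 46.9 to 458.9 and 472.0 CPM (3.06, SE 0.20). IFITM1 went from 0.644 and 0.651 to 19.8 and 16.8 CPM (4.81, SE 0.24). EPSTI1 rose by 5.45 (SE 0.27) and IFI27 by 5.22 (SE 0.65).

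Some best-known members of the same families did not pass the test. MX1, a dynamin-like GTPase against influenza virus, had 3.03 and 2.15 CPM before and 3.85 and 3.51 CPM after treatment (0.50, SE 0.32, adjusted p 0.241). MX2 (0.77, SE 0.49, adjusted p 0.249) and OAS2 (0.66, SE 0.65, adjusted p 0.458) were not called either. IFIT1 was called with a smaller change than IFIT3, from 9.15 and 13.0 to 24.6 and 22.7 CPM (1.10, SE 0.19), and not under spike-in scaling (0.33, adjusted p 0.265). RTP4 had no read without and 0.954 and 2.16 CPM with IFN-γ, at least 10.8-fold higher. RSAD2 (viperin) had 3 reads without and 1.68 and 0.816 CPM with IFN-γ, a ratio of 17.6 (95% counting interval 5.74 to 87.3), and was not called without untreated replicate 1 (adjusted p 0.0532) or treated replicate 1 (adjusted p 0.11).

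ISG15, a ubiquitin-like modifier, and its enzymes were called higher in 5 of 6 tested genes (3 higher and 1 lower under spike-in scaling). UBE2L6, the conjugating enzyme, rose from 13.3 and 14.7 to 233.4 and 243.9 CPM (4.09, SE 0.16, adjusted p 1.11e-06), and UBA7, the activating enzyme, from 1.52 and 0.451 to 18.7 and 20.9 CPM (4.30, SE 0.43). ISG15 itself changed less, from 64.2 and 68.7 to 144.5 and 163.0 CPM (1.21, SE 0.13). HERC5, the main ligase, was not called (-0.41, SE 0.19, adjusted p 0.112), while HERC6 was called higher (1.01, SE 0.20). Under spike-in scaling ISG15 and HERC6 were not called.

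Among 14 nucleic acid sensors and adaptors, 8 were called higher and none lower (4 and 1 under spike-in scaling). TLR3, an endosomal sensor of double-stranded RNA, rose from 7.95 and 8.17 to 50.4 and 53.1 CPM (2.68, SE 0.15, adjusted p 8.33e-06), and IFIH1 (MDA5), a cytosolic sensor, from 11.1 and 11.7 to 57.5 and 47.9 CPM (2.21, SE 0.16). ADAR, which edits double-stranded RNA, rose from 278.2 and 232.4 to 848.3 and 837.6 CPM (1.72, SE 0.13). Of 6 APOBEC3 cytidine deaminases tested, APOBEC3F was called higher (1.58, SE 0.25) and APOBEC3B lower (-0.67, SE 0.20), beside 17.1 and 20.8% of all tested genes. APOBEC3B was not called without untreated replicate 2 (adjusted p 0.0548) or treated replicate 1 (adjusted p 0.166), and APOBEC3F was not called under spike-in scaling.

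Of 15 PARP family genes and their partner DTX3L, 7 were called higher and 2 lower (6 and 3 under spike-in scaling), with none lower when any 1 library other than untreated wild-type replicate 1 was left out. The rises were large and alike in both replicates: PARP9, which acts with DTX3L in a ubiquitin ligase complex, had 18.8 and 25.1 CPM before and 316.0 and 314.6 CPM after treatment (3.85, SE 0.16, adjusted p 1.84e-06). DTX3L rose from 25.1 and 22.2 to 323.4 and 303.0 CPM (3.73, SE 0.13), and PARP14 from 41.7 and 53.01 to 479.2 and 438.1 CPM (3.28, SE 0.16). PARP10 rose by 5.00 (SE 0.23). Of 14 TRIM ubiquitin ligases, 9 were called higher and none lower (4 and none under spike-in scaling). TRIM21, the cytosolic antibody receptor, rose from 16.8 and 17.7 to 73.6 and 87.7 CPM (2.22, SE 0.15), and TRIM25, which activates RIG-I, from 126.9 and 102.5 to 320.2 and 321.8 CPM (1.48, SE 0.15).

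The CXCR3 ligands CXCL9, CXCL10 and CXCL11, chemokines that draw T cells and are standard IFN-γ targets, had no read in any of the 4 wild-type libraries. The ISRE letters are present ahead of CXCL10 and CXCL9, as shown above. Of 29 chemokines and cytokines listed, 18 were tested, 5 of them called higher and 1 lower (4 and 2 under spike-in scaling). The shares over all tested genes were 17.1% called higher and 20.8% called lower. CSF1, the macrophage growth factor, rose from 2.80 and 2.40 to 27.4 and 26.2 CPM (3.36, SE 0.20, adjusted p 1.29e-05). IL15 (3.45 and 2.71 to 11.1 and 11.4 CPM) and its receptor chain IL15RA (5.38 and 4.36 to 16.6 and 18.3 CPM) rose by 1.87 (SE 0.23) and 1.84 (SE 0.25). IL18BP, which neutralizes IL-18, rose from 6.44 and 3.91 to 32.7 and 32.7 CPM (2.65, SE 0.23). IL18 fell from 29.9 and 35.0 to 13.7 and 12.7 CPM (-1.29, SE 0.16), or by 0.34 and without a call once the GC and length trend was removed.

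Checkpoint and tryptophan pathway genes rose too: 13 of 18 were called higher and none lower (7 and 2 under spike-in scaling). The 13 became 8 without untreated replicate 2, 8 without treated replicate 1 and 7 without treated replicate 2. IDO1, which starts the breakdown of tryptophan, had no read without and 9.42 and 10.4 CPM with IFN-γ, at least 69-fold higher (adjusted p 5.74e-05). WARS, the tryptophan tRNA synthetase, rose from 95.1 and 70.8 to 878.4 and 901.9 CPM (3.42, SE 0.17, adjusted p 4.28e-06). CD274, which encodes PD-L1, rose from 2.44 and 5.46 to 19.3 and 22.2 CPM (2.40, SE 0.34, adjusted p 0.000979). LGALS9 (galectin-9) went from 0 and 0.200 to 8.85 and 9.31 CPM (6.48, SE 0.61). The butyrophilins BTN3A1 and BTN3A3, known from the activation of gamma delta T cells, rose by 2.60 (SE 0.20) and 2.45 (SE 0.21).

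Of 25 cell death genes 10 were called higher and 4 lower (1 and 11 under spike-in scaling), beside 17.1 and 20.8% of all tested genes. The counts were 3 and 2 without treated replicate 1, while 4 were called higher without treated replicate 2 and 5 in the wild-type libraries alone. CASP1, the inflammatory caspase, had no read without and 3.01 and 5.39 CPM with IFN-γ, at least 29.1-fold higher. GSDMD, the pore former that CASP1 cleaves, changed from 25.5 and 19.1 to 39.3 and 42.2 CPM (0.87, SE 0.18), a call lost under spike-in scaling. TNFRSF10D, a decoy receptor for TRAIL, fell from 97.4 and 107.3 to 36.0 and 31.1 CPM (-1.61, SE 0.14), and by the same 1.61 with the GC and length trend removed.

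Complement genes moved in both directions, in a response with 17.1% of all tested genes called higher and 20.8% lower. Of 15 tested, 5 were called higher and 4 lower, or 2 lower without untreated replicate 2 or either treated replicate. C1R, a protease that starts the classical pathway, rose from 1.38 and 0.952 to 10.0 and 7.59 CPM (2.91, SE 0.31) and C1S from 1.61 and 1.00 to 5.11 and 6.49 CPM (2.14, SE 0.33). CFB, factor B of the alternative pathway, had 1 read without and 2.40 and 4.04 CPM with IFN-γ, a ratio of 133 (95% counting interval 23.6 to 5300). SERPING1, the C1 inhibitor, had no read without and 2.59 and 2.94 CPM with IFN-γ, at least 19.2-fold higher. The membrane regulators CD46 (-1.06, SE 0.15), CD59 (-0.83, SE 0.15) and CD55 (-0.60, SE 0.21) were called lower, the last not without untreated replicate 2 or either treated replicate (adjusted p 0.121 to 0.207). C1S, C1R, C1RL and CLSTN3 lie side by side at chr12:6988259-7158945, and each was called at least 2-fold higher, CLSTN3 not under spike-in scaling (0.51, adjusted p 0.148).

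Smaller shifts were seen in neighbouring pathways. ICAM1, the adhesion ligand of leukocyte integrins, rose from 4.597 and 4.96 to 40.1 and 41.4 CPM (3.09, SE 0.15). In the NF-kB and adhesion list 7 of 18 genes were called higher and 1 lower, beside 17.1 and 20.8% of all tested genes. With the GC and length trend removed 1 each was called, and under spike-in scaling 1 and 4. The 7 became 1 without untreated replicate 2 or treated replicate 1 and 2 without treated replicate 2. MYC went from 316.2 and 202.2 to 404.2 and 400.2 CPM (0.63, SE 0.19, adjusted p 0.0269) and was not called, with a change of -0.21, under spike-in scaling, nor without treated replicate 1 (adjusted p 0.114) or 2 (adjusted p 0.1). Of 33 Mediator subunits 9 were called higher and 9 lower (none and 18 under spike-in scaling), beside 17.1 and 20.8% of all tested genes, with a median of -0.11 beside 0.08. Without treated replicate 1 the count called higher was 4, and without treated replicate 2 it was 5. MED12 itself went from 23.1 and 14.2 to 34.3 and 28.3 CPM (0.75, SE 0.23, adjusted p 0.0302), which became 0.08 with the trend removed and -0.08 under spike-in scaling, neither of them called. MED12 was not called without untreated replicate 2 or either treated replicate (adjusted p 0.058 to 0.173). CCNC, the cyclin of the Mediator kinase module, fell from 162.8 and 213.7 to 82.6 and 86.9 CPM (-1.15, SE 0.15, adjusted p 0.000718), or by 0.40 with the trend removed, and its kinase CDK8 was not called (-0.12, SE 0.14, adjusted p 0.532).

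**Figure D4:**
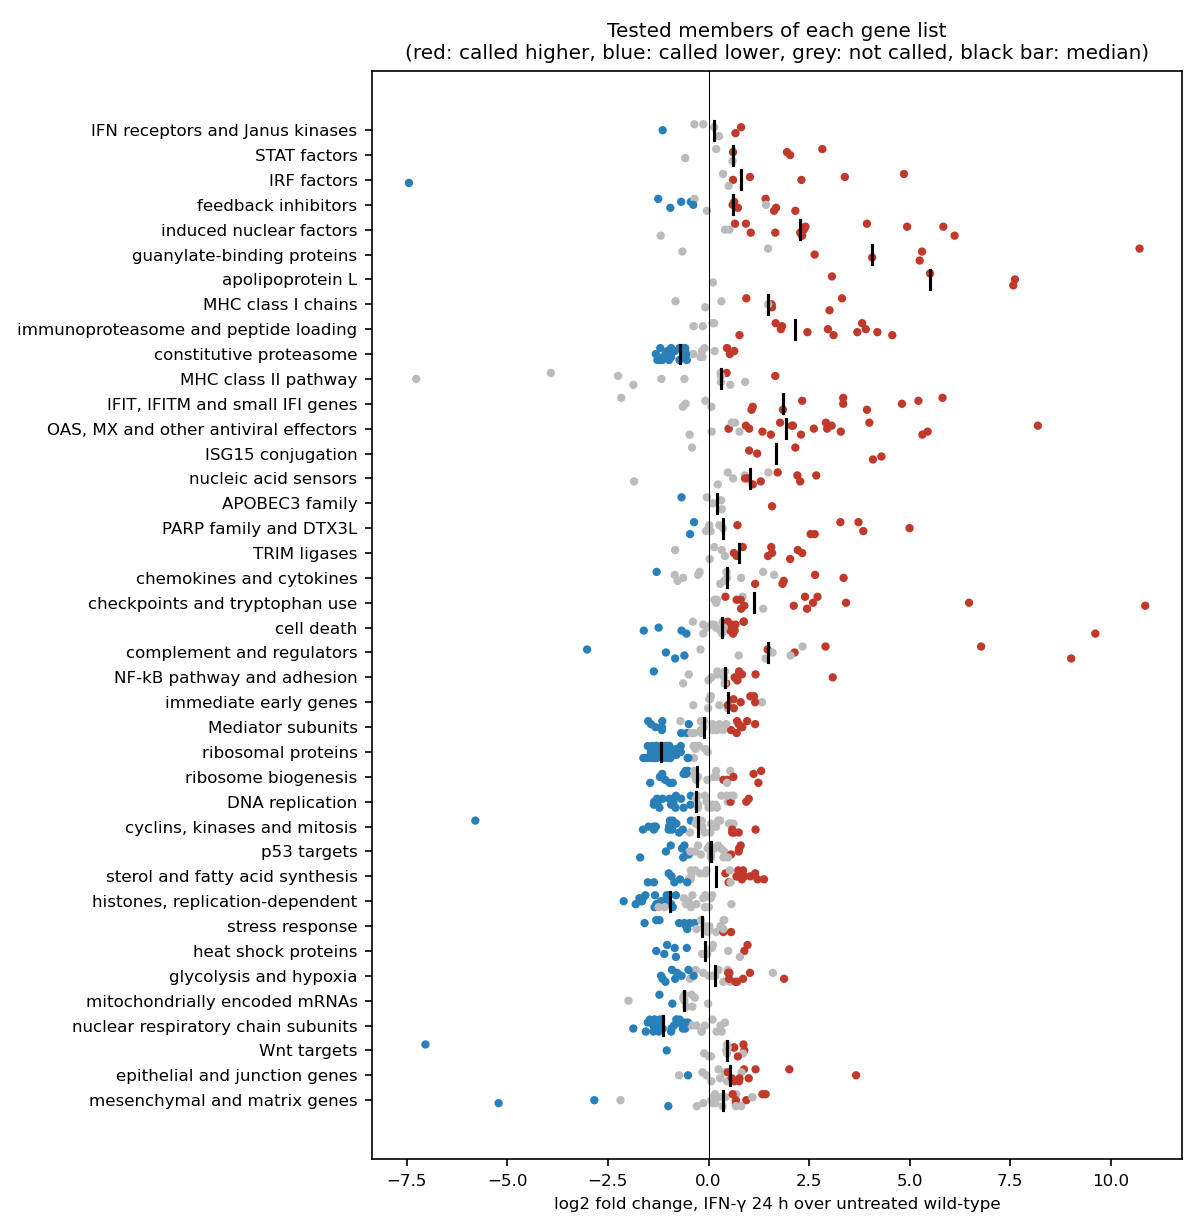
Log2 fold change of each tested member of 40 gene lists, with red for called higher, blue for called lower, grey for not called and a black bar for the list's median. The lists of IFN-γ effectors lie to the right, up to a median of 5.51 for apolipoprotein L, and the ribosomal proteins (median -1.19) and respiratory chain subunits (median -1.14) to the left; isolated blue points at the far left include IRF4 and CCND2, which are flagged genes. No list held more than 1 tested member with no read in one group. Setting that member to its bound left it on the same side of the median, so that no list's median could change.

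The falls were many and mostly shallow, and included most genes for ribosomal proteins. Of 77 ribosomal protein genes 69 were called lower and none higher, with a median of -1.19, and 66 and none with the GC and length trend removed (median -0.84). RPS3A fell from 2386 and 3382 to 1042 and 1087 CPM (-1.44, SE 0.16, adjusted p 0.000454), or by 0.50 with the trend removed. RPL39, a subunit of the large particle, fell from 684.4 and 859.9 to 258.8 and 273.1 CPM (-1.54, SE 0.14), or by 1.19. Both genes were lower in each treated than in each untreated library. Ribosomal protein genes have many near-identical pseudogene copies, so that reads may be split between IDs.

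Nuclear-encoded respiratory chain subunits moved like them, with 33 of 43 called lower and none higher (median -1.14, and -0.63 with the trend removed), or 3 higher without untreated replicate 1. COX7C, a small subunit of cytochrome oxidase, fell from 158.9 and 193.0 to 49.3 and 47.3 CPM (-1.87, SE 0.14, adjusted p 7.18e-05), or by 0.85. ATP5ME, a subunit of ATP synthase, fell by 1.56 (SE 0.13). Of 11 mRNAs encoded in mitochondrial DNA, 2 were called lower and none higher, beside 20.8 and 17.1% of all tested genes. The 2 became 7 when either untreated knock-in library was left out, 6 in the wild-type libraries alone or with DESeq2, 8 without the filter on low counts and 9 under spike-in scaling. MT-CO3, one of the 2, changed by -0.90 (SE 0.15), and by -0.06 without a call when the GC and length trend was removed. The other was MT-ND6, whose change of -1.22 (SE 0.32) became 0.04, and which was not called without treated replicate 1 (-0.76, adjusted p 0.0644).

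Genes of DNA replication and division fell in part, in a response with 20.8% of all tested genes called lower and 17.1% higher. Of 36 replication genes 17 were called lower and 3 higher (17 and 1 with the trend removed, 28 and none under spike-in scaling). Of 38 cyclin, kinase and mitosis genes 16 were called lower and 5 higher (16 and 6, 27 and none), and CCND2 among them is a flagged gene. Without untreated replicate 1 each list had 8 called higher, and the second had 3 without untreated replicate 2 and 2 without either treated replicate. PCNA, the sliding clamp, fell from 480.2 and 741.1 to 247.5 and 229.8 CPM (-1.36, SE 0.19, adjusted p 0.000881). CCNE2, a cyclin of S phase entry, fell from 102.6 and 114.7 to 35.7 and 34.5 CPM (-1.63, SE 0.13), and TTK, a kinase of the spindle checkpoint, from 254.7 and 343.7 to 109.1 and 104.3 CPM (-1.49, SE 0.16). Replication-dependent histone genes, whose mRNAs mostly lack a poly(A) tail, were called lower in 19 of 36 tested and higher in none, and lower in 7 with the trend removed. The 19 became 11 without untreated replicate 2 or treated replicate 2 and 9 without treated replicate 1.

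Other lists were mixed. Of 30 sterol and fatty acid genes 13 were called higher and 7 lower, beside 17.1 and 20.8% of all tested genes. IDI1, an isomerase of the mevalonate pathway, was called lower (-1.36, SE 0.15). The list became 5 and 6 with the GC and length trend removed, and none and 15 under spike-in scaling. It had 12 lower without untreated replicate 1, and 7 higher without untreated replicate 2, 5 without treated replicate 1 and 7 without treated replicate 2. Of 29 p53 targets 4 were called higher and 8 lower (3 and 3 with the trend removed, none and 17 under spike-in scaling), beside 17.1 and 20.8% of all tested genes, with a median of 0.06 beside 0.08. Without untreated replicate 1 it had 8 called higher, without untreated replicate 2 it had 5 lower, and without either treated replicate 2 higher and 4 lower. The cell cycle regulator CCNG1 fell from 241.9 and 327.4 to 84.1 and 90.5 CPM (-1.70, SE 0.16). Of 29 glycolysis and hypoxia genes 8 were called higher and 9 lower, beside 17.1 and 20.8% of all tested genes, with a median of 0.17. With the trend removed 4 and 8 were called, and under spike-in scaling 1 and 15. The largest rise of the list was that of HK1, a hexokinase, from 32.5 and 22.0 to 99.99 and 100.7 CPM (1.88, SE 0.18). CEACAM1, a cell adhesion molecule of epithelia, rose from 1.33 and 0.401 to 11.8 and 10.7 CPM (3.67, SE 0.41). In its list of 20 epithelial and junction genes 10 were called higher and 1 lower (1 and 3 under spike-in scaling). All tested genes had 17.1% called higher and 20.8% lower. The 10 became 5 without untreated replicate 2, 6 without treated replicate 1 and 3 without treated replicate 2.

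**Figure D5:**
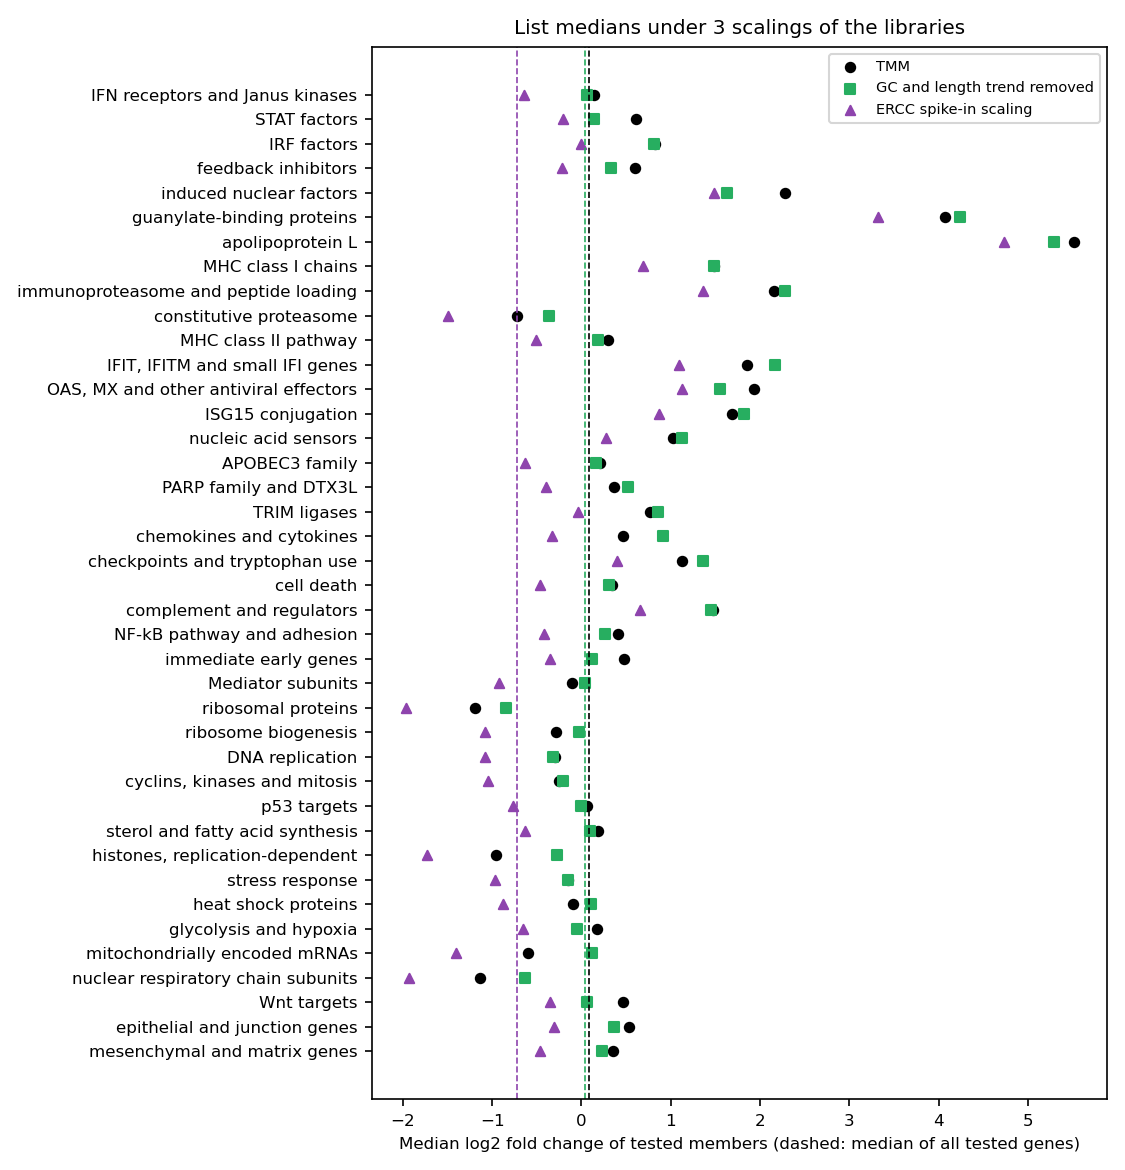
Median log2 fold change of the tested members of 40 gene lists under TMM scaling (black), with the GC and length trend removed (green) and under ERCC spike-in scaling (purple), with dashed lines for the median of all tested genes. The spike-in scaling moves the median of all tested genes from 0.08 to -0.72; the medians of apolipoprotein L (5.51, 5.29 and 4.73) and guanylate-binding proteins (4.07, 4.24 and 3.32) stay above 0, and that of the ribosomal proteins (-1.19, -0.84 and -1.97) below.

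Some genes with large falls, outside the flagged genes, were also higher in knock-in replicate 2, which held plasma cell transcripts. Among the 86 unflagged genes called at least 4-fold lower, 29 were at least 2-fold higher in knock-in replicate 2 than 1 at both times. This count, with 0.1 CPM added, was made after the data were seen. The share of all tested genes that meet the same rule was not counted, so that 29 of 86 cannot be called high or low. SERPINF1 went from 8.55 and 8.92 to 0.191 and 0 CPM in wild-type cells (-6.40, SE 1.41, adjusted p 0.00682, and 0.0509 without treated replicate 2). In the knock-in line it had 0.891 and 8.95 CPM untreated and 0.989 and 5.82 CPM treated, high in replicate 2. IL2RG, the common gamma chain of lymphocyte cytokine receptors, went from 6.53 and 6.61 to 0.153 and 0.980 CPM (-3.54, SE 1.18, adjusted p 0.0404), a call lost whichever wild-type library was left out (adjusted p 0.0572 to 0.186). Its knock-in levels were 0.501 and 6.03 CPM untreated and 0.989 and 5.38 CPM treated. The part of the plasma cell signal in these falls was not tested.

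VIM, the intermediate filament protein vimentin, fell from 24.8 and 30.2 to 4.46 and 3.23 CPM (-2.84, SE 0.41, adjusted p 0.001). VIM is not among the 29, but in the knock-in line it was also higher in replicate 2 than in replicate 1 at both times. It had 21.9 and 40.5 CPM untreated and 18.3 and 38.2 CPM treated there, with a knock-in change of -0.15 (SE 0.36). The part of the plasma cell signal in the fall of VIM was not tested. RPSAP58, a copy of a ribosomal protein gene whose counts may be shared with its parent, went from 8.41 and 3.91 to 0.305 and 0.408 CPM (-4.09, SE 0.54). COX16, an assembly factor of cytochrome oxidase, fell from 14.9 and 24.6 to 3.32 and 3.35 CPM (-2.57, SE 0.32, adjusted p 0.00061), or by 1.62 with the GC and length trend removed. PFDN4, a subunit of the prefoldin chaperone, fell from 46.1 and 68.6 to 15.5 and 14.3 CPM (-1.94, SE 0.20), or by 0.64.

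The response of the knock-in line was set beside that of wild-type cells. It had 4356 genes called higher (26.4%) and 4257 lower (25.8%). Of the genes called higher in wild-type cells 2478 were also called higher in E33Q cells, which is 87.8% of the wild-type and 56.9% of the knock-in calls. For genes called lower the overlap was 3212, or 93.5 and 75.5% of the 2 lists. Only 3 genes were called in opposite directions, AC020915.1, AC008878.3 and an ID without a symbol, each with an adjusted p of 0.688 for the difference between the lines. No gene was called for a difference between the responses by edgeR's quasi-likelihood test, with 1119 of 16519 at an unadjusted p under 0.05 (6.77%) and a lowest adjusted p of 0.311. DESeq2 called 4 genes and limma-voom 0, while edgeR called 27 with the replicate block and 267 without a filter on low counts. Deviations of same-numbered libraries from their group means correlated at 0.428 in the knock-in line and 0.078 in wild-type cells. IRF1 changed by 4.86 in wild-type and 4.92 in E33Q cells. GBP1 had a fitted change of 10.72 and 9.26, NLRC5 one of 4.94 and 6.12, and CD274 one of 2.40 and 2.17. SOCS1, uncalled in wild-type cells at 1.43, changed by 3.47 in E33Q cells.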

How the data were processed

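Trimmomatic, kallisto and GRCh38 are named in the submitters' processing notes. The deposited values are estimated counts per gene from the authors (58.3% of nonzero values not whole, tolerance 1e-06), rounded here to whole numbers. Versions and the transcript annotation are not given there. ERCC rows (63) were left out of all tests. GENCODE 29 named 35583 of 40295 IDs, and 904 of the 15129 IDs above 100 counts matched another ID in every library, so that shared reads may be counted more than once.

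Genes were kept with filterByExpr (minimum count 10), scaled by TMM and tested with edgeR 4.0.16 in R 4.3.3: a quasi-likelihood F test on group over all 8 libraries, Benjamini-Hochberg adjustment over the 16519 genes that passed, threshold 0.05. The common dispersion gives a coefficient of variation of 20.4%. Alternatives used DESeq2 1.42.0, limma 3.58.1 and other scalings, filters, fits and left-out libraries. GC content and length were known for 92.4% of these genes, and 1 alternative removed their trend by loess (span 0.3). P-values measure the spread between 2 samples a group. For the wild-type comparison, counts of 16070 genes were also simulated with the common dispersion for every gene. The fit recovered 46.3% of 108 planted 2-fold and 98.9% of 92 planted 4-fold changes, with 5 unchanged genes called. The simulation held no difference in spread between genes, no GC trend and no pair that agreed less well. Its figures therefore need not hold for these data. Floors and counting intervals cover counting error only.

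The members and gene lists were chosen with earlier results of these data known. Named were up to 6 called members per list with the largest change, 1 CPM or more and no overlap, the 20 largest rises and falls at 5 CPM or more, the 12 largest flagged falls and a set of pathway genes. Some genes that the rule takes are left out for length, and some are not reported here. Other members of a named family (PSMB5, PSMB6, PSMB7, IFIT1, OAS2, MX1, MX2, HERC5, CD46, CD55, CD59, STAT4, STAT5A, STAT5B, RFX5) were added after their values were seen.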

Additional observations from a re-analysis of the deposited data

Results flagged for a closer look

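The ERCC spike-in RNAs stand outside the gene table that was tested, and their share of the counts was higher in both treated than in both untreated wild-type libraries: 0.249% ± 0.031 (SD, n = 2) against 0.119% ± 0.013 (SD, n = 2). The amount of spike-in added per library is not given in the labels.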

How the results depend on the processing

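The count of genes called higher, 2821, became 233 under ERCC spike-in scaling and 1796 with the GC and length trend removed, and ranged from 1157 to 3572 when each wild-type library was left out. The count called lower, 3435, became 6745 under spike-in scaling and ranged from 2109 to 4224 with a library left out; the highest counts came without untreated replicate 1 and the lowest without treated replicate 1. Genes called different between the responses numbered 0, 267 without a filter on low counts, 27 with the replicate block and 4 with the DESeq2 Wald test, and 0 to 2 with a library left out. Deviations of same-numbered wild-type libraries correlated weakly (0.078 over 11450 genes, 0.428 in the knock-in line). These values do not show whether same-numbered samples were paired. With the replicate block 3178 genes were called higher and 3527 lower. Directions turned under spike-in scaling for IFNGR2 (-0.15), JAK1 (-0.55, then called), STAT6 (-0.21), RFX5 (-0.34), MYC (-0.21) and MED12 (-0.08), and with the GC and length trend removed for MT-ND6 (0.04). Of 117 named genes called, 84 kept call and direction in every alternative counted here in which they were tested. Fits without a knock-in library were not part of this count, and they changed some list counts. The cause was not tested.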
